A study of Mus musculus with 4 samples.

Results

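Mitochondrial ribosomal protein genes are the nuclear genes for the proteins of the ribosome inside mitochondria. They were taken here as every gene name of the count table that begins with Mrpl or Mrps followed by a number, pseudogene names left out. The rule gave 77 genes of 41342 named genes, 48 with large subunit names (Mrpl) and 29 with small subunit names (Mrps). They lie on 17 chromosomes, with 10 on chromosome 11 and 8 on chromosome 17. Mrps36, a member by its name, is now known as a subunit of the oxoglutarate dehydrogenase complex. The members were measured in splenic B cells of mice with altered IgH 3'RR enhancers, the regulatory region downstream of the immunoglobulin heavy chain genes.

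RNA came from CD43-depleted splenocytes of mice on a strain 129 background. Such splenocytes are mostly B cells, since most other leukocytes carry CD43 and are taken away with it. In ΔleftPAL mice the fragment from hs3a through hs1,2 is deleted. ΔIRIS mice lack the left-side intervening repeats, between hs3a and hs1,2, and keep every enhancer, with hs3a inverted. Each genotype gave 1 library of freshly isolated (resting) cells and 1 of LPS cells, kept for 48 h in medium with 5 µg/ml of LPS, an outer membrane component of bacteria that B cells respond to. Libraries of wt mice were not analysed here. The LPS cells had also been kept in culture, so LPS, culture and time cannot be told apart. Each library pooled RNA of several mice (4 by the labels), all mice carried a germline deletion, and no group has a replicate library. Ribosomal RNA was depleted from total RNA before sequencing, so unspliced RNA was kept.

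The mitochondrial ribosome translates the few messages of mitochondrial DNA, which encode membrane subunits of the respiratory chain and of ATP synthase. Its 2 ribosomal RNAs come from mitochondrial DNA, and all of its proteins are made in the cytosol and imported. Part of these proteins have a counterpart in the bacterial ribosome, and the others were added in the course of mitochondrial evolution. Resting B cells are small cells with little biosynthesis, and LPS makes them grow and divide.

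Gene counts summed to between 23621743 and 29778717 per library. They were scaled to CPM, which is counts relative to the library size that edgeR's TMM method gives. The B cell receptor genes Cd79a and Cd79b were present in every library. Cd79a stood at 463 and 477 CPM at rest and at 239 and 250.2 CPM after LPS (ΔleftPAL and ΔIRIS), and Cd79b at 977 and 618 CPM at rest and at 488 and 444 CPM after LPS. Resting libraries held more RNA of other cells. The 6 erythroid markers summed to 41305 and 28663 CPM at rest against 58.2 and 124 CPM after LPS, and the 6 myeloid markers to 361 and 480 against 14.2 and 20.03 CPM, although Itgam went from 10.5 to 15.4 CPM in ΔIRIS cells. The 6 T cell markers stood at 21.1 and 25.3 CPM at rest and at 0.19 and 0.10 after LPS, with 3 and 4 of them at 0. The 3 NK cell markers went from 3.15 and 1.24 CPM to 0.15 and 0.07. The 6 proliferation markers, in turn, went from 486 and 612 CPM to 3601 and 4058, and the 4 plasma cell markers from 267 and 244 to 985 and 600, mostly Igj and Xbp1, while Sdc1 went from 17.9 to 13.2 CPM in ΔIRIS cells. The part of these cells and of cell division in the values below was not tested. Values are shares of each library's RNA, so fewer cells of a type and less RNA per cell cannot be told apart.

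Most members were higher after LPS in both genotypes. Of 77 members, 76 had a mean of at least 50 counts, and Mrpl53 alone did not, with 0 counts in every library. In ΔleftPAL cells 56 of the 76 were at least 2-fold higher after LPS, where 21.3% of the 11286 genes with that mean were. In kallisto TPM, where the median of all genes tested was -0.22 instead of 0.12, the number was 35. In ΔIRIS cells 58 of the 76 were at least 2-fold higher, against 22.8% of genes. No member was 2-fold lower in either genotype, against 16.5% and 18.2% of genes. In both genotypes at once 55 members were at least 2-fold higher, against 18.4% of genes, and in TPM the number was 33. For each of the 76 members both LPS values lay above both resting values, which was the case for 46.4% of genes. With total counts as library sizes this held for 75, as Mrpl24 had a log2 ratio of -0.04 in ΔleftPAL cells. In TPM it held for 72, without Mrpl23, Mrpl24, Mrpl43 and Mrps2. The shares of all genes were taken in CPM with TMM alone. The counts of members in TPM or with total counts thus have no share of all genes beside them.

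The change that both genotypes shared was tested with edgeR's quasi-likelihood fit over all 11286 genes, with genotype and LPS as terms and Benjamini-Hochberg adjustment. Here 74 of the 76 members were higher after LPS (adjusted p between 0.000199 and 0.0424), against 36.4% of genes, and 0 were lower, against 27.9% of genes. At an unadjusted p under 0.05 the fit called 0 members lower as well, and so did DESeq2's Wald test at either threshold. The 2 members not called were Mrpl24 and Mrpl43. This fit has 1 residual degree of freedom and the genotypes stand in for replicates, so its error comes from the difference between the genotypes in their LPS change, moderated over all genes.

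The median log2 ratio of LPS over resting was 1.22 in ΔleftPAL cells (SD over members 0.42) and 1.31 in ΔIRIS cells (SD 0.48). The median of all genes tested was 0.12 and 0.13, with SDs of 1.61 and 1.73. The spread over members was thus much smaller than that over all genes, but this is not particular to the members. Of lists described below, the nuclear subunits of oxidative phosphorylation had SDs of 0.55 and 0.53. The mitochondrial tRNA synthetases had SDs of 0.48 and 0.53. The 47 measured large subunit names had medians of 1.27 and 1.37, and the 29 small subunit names of 1.17 and 1.26. The 45 members with a bacterial counterpart had medians of 1.28 and 1.32, and the 31 without one of 1.19 and 1.30. The members' summed gene counts went from 0.130% (95% exact binomial interval 0.128 to 0.131) to 0.285% (0.283 to 0.287) of all counts in ΔleftPAL cells. In ΔIRIS cells they went from 0.124% (0.122 to 0.125) to 0.304% (0.302 to 0.306). These intervals and those of the log2 ratios below reflect counting error alone, as PCR copies of 1 molecule were counted separately.

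**Figure D1:**
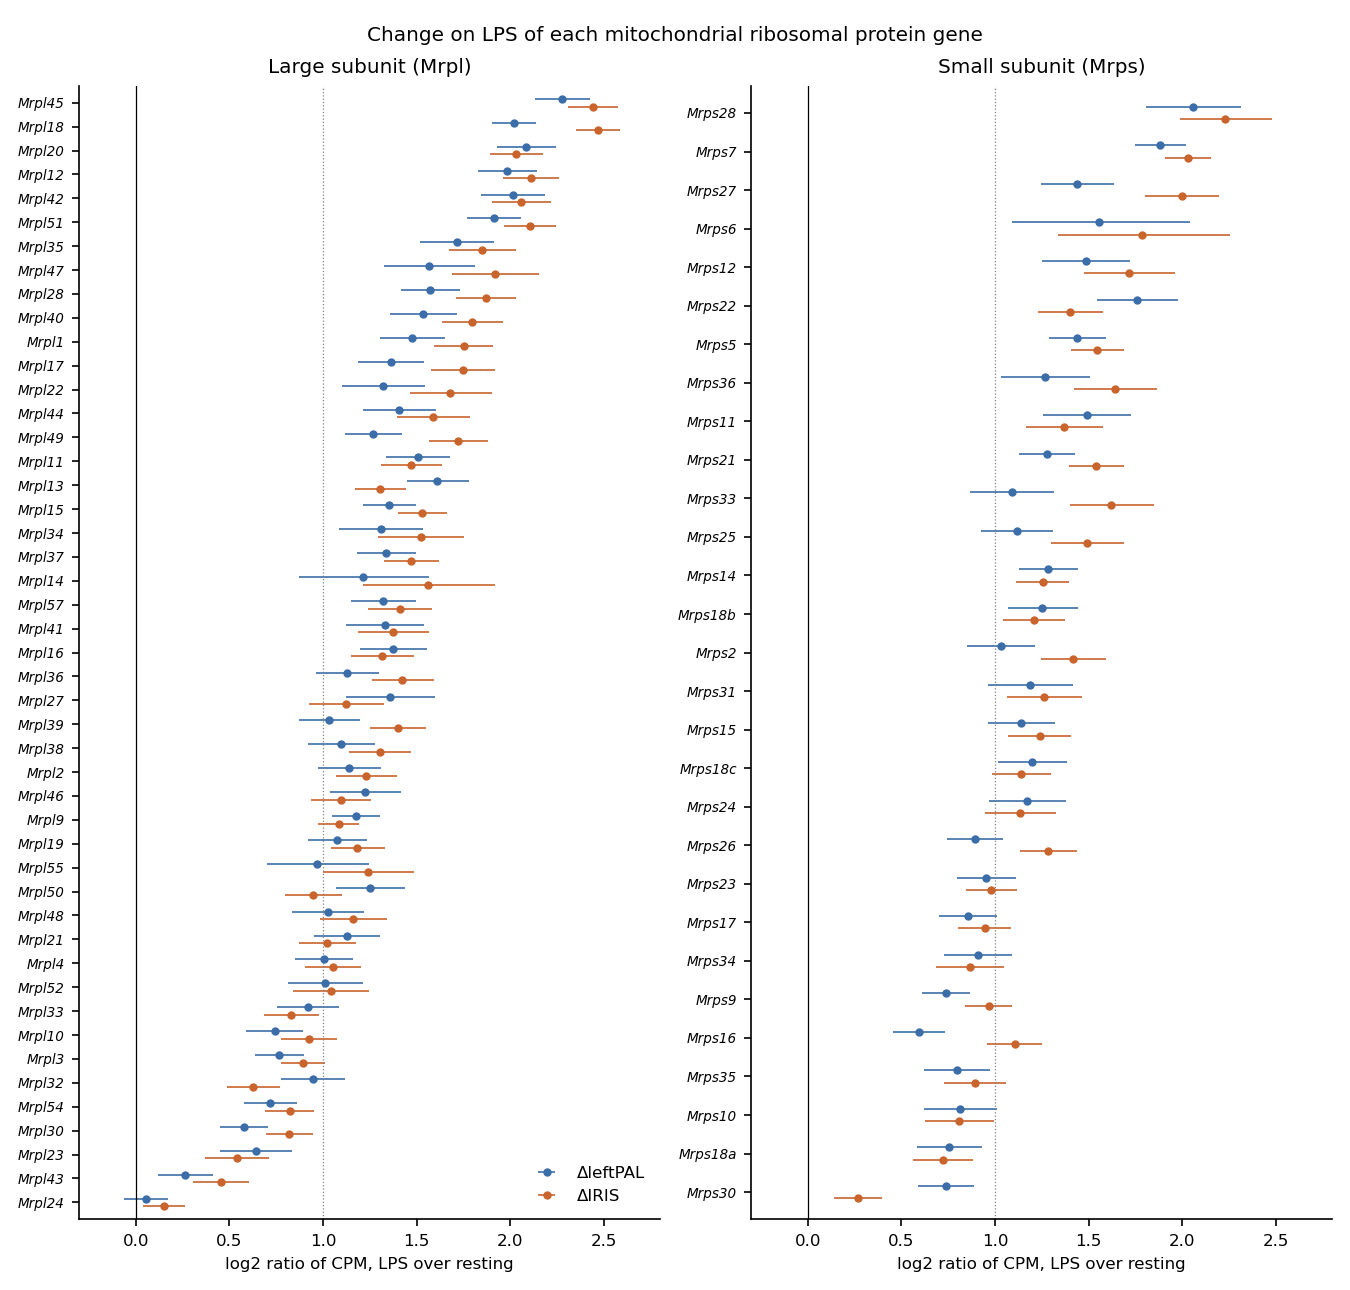
Each of the 76 measured members is a row, large subunit names left and small subunit names right, ordered by the mean change. The x axis is the log2 ratio of CPM of LPS over resting, points are the 1 library pair of each genotype, bars are 95% exact counting intervals, and the dotted line marks 2-fold. Every point lies above 0, from Mrpl24 (0.05 and 0.15) up to Mrpl45 in ΔleftPAL (2.28) and Mrpl18 in ΔIRIS cells (2.47).

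Mrpl45, the exit tunnel protein that holds the ribosome to the inner membrane, changed most by the mean of both genotypes, while Mrpl18 changed most in ΔIRIS cells. It had 19.0 CPM in resting ΔleftPAL and 18.4 in resting ΔIRIS cells, and 92.2 and 100.1 CPM after LPS. The resting values of the genotypes were close to each other, and after LPS the ΔIRIS value was slightly higher. The log2 ratios were 2.28 (95% exact interval 2.13 to 2.42) and 2.44 (2.31 to 2.58), and the fitted change was 5.13-fold (log2 2.36, SE 0.13, edgeR adjusted p = 0.000199). Mrpl18, the counterpart of bacterial L18, went from 28.9 to 117.1 CPM in ΔleftPAL and from 23.3 to 129.0 CPM in ΔIRIS cells. ΔIRIS cells thus held its lowest resting and its highest LPS value. Its log2 ratios were 2.02 (1.90 to 2.14) and 2.47 (2.35 to 2.59), with an edgeR adjusted p of 0.000332.

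Mrps28, of the small subunit, went from 6.59 and 5.78 CPM to 27.4 and 27.1 CPM (ΔleftPAL and ΔIRIS). Mrpl20, the counterpart of bacterial L20, went from 16.7 and 17.96 CPM to 71.1 and 73.5 CPM. Mrpl42, a large subunit protein without a bacterial counterpart, went from 13.9 and 13.8 CPM to 56.0 and 57.6 CPM. In each of these genes the 2 genotypes were close together in either state. These 3 genes, Mrpl45 and Mrpl18 were the 5 members at least 4-fold higher in both genotypes, against 4.82% of genes. Of the 76 measured members 5 make 6.58%, a share near that background.

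The next members were Mrpl12, Mrpl51 and Mrps7. Mrpl12, the stalk protein that calls in translation factors, went from 16.3 and 15.5 CPM to 64.4 and 66.9 CPM. Mrpl51, also without a bacterial counterpart, went from 20.5 and 17.9 CPM to 77.2 and 77.1 CPM. Mrps7, a counterpart of bacterial S7 in the head of the small subunit, went from 22.6 and 22.6 CPM to 83.2 and 92.5 CPM. The 8 members named so far lay between the 93.7th and the 95.9th percentile of all genes tested by mean log2 ratio.

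At the other end, Mrpl24, a counterpart of bacterial L24 at the mouth of the exit tunnel, had the smallest change. It stood at 45.1 and 41.6 CPM at rest and at 46.8 and 46.2 CPM after LPS. Its log2 ratios were 0.05 (-0.06 to 0.17) and 0.15 (0.04 to 0.27), and the edgeR fit did not call it (adjusted p = 0.489). Mrpl43, a large subunit protein without a bacterial counterpart, stood at 27.6 and 22.0 CPM at rest and at 33.1 and 30.2 CPM after LPS. Its log2 ratios were 0.26 (0.12 to 0.41) and 0.46 (0.31 to 0.60), and the fit did not call it either (edgeR adjusted p = 0.0659). With kallisto estimated counts Mrpl43 was called (log2 change 0.48, edgeR adjusted p = 0.0268), and Mrpl23 was not.

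Mrps30, which by its place belongs to the large subunit in spite of its name, went from 22.6 to 37.7 CPM in ΔleftPAL cells and from 30.1 to 36.3 CPM in ΔIRIS cells. The resting values were apart, and the LPS values close. Its edgeR adjusted p of 0.0424 was the highest of the called members, and it was not called with total counts, DESeq2 size factors, TMM without immunoglobulin genes or DESeq2's own test. The other low changes were those of Mrpl23 (log2 ratios 0.64 and 0.54), Mrpl30 (0.58 and 0.82), Mrps18a (0.76 and 0.72), Mrpl54 (0.72 and 0.82) and Mrpl32 (0.95 and 0.63). Mrpl23 and Mrpl30 are counterparts of bacterial L23 and L30, and Mrpl32 of L32.

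Grouped by place in the ribosome, the members listed as stalk were Mrpl1, Mrpl10, Mrpl11 and Mrpl12. All rose by the edgeR fit, which called 36.4% of genes and 97.4% of members higher. Their median log2 ratios were 1.49 and 1.61. Mrpl10, Mrpl11 and Mrpl12 belong to the arm of the large subunit that binds translation factors, while Mrpl1 lies outside it. Mrpl10, the base of that arm, rose least of the listed members, from 22.3 and 19.5 CPM to 37.3 and 37.1 CPM. Mrpl12, which Mrpl10 carries, rose most. Of the 6 members around the polypeptide exit 5 rose by this fit (83.3%, against 36.4% of genes). These were Mrpl22, Mrpl23, Mrpl44, Mrpl45 and Mrpl47, and Mrpl24 was not called. Mrpl23 was not called by DESeq2's Wald test or with kallisto estimated counts, and its TPM in ΔIRIS cells went from 11.2 to 10.1. The medians of the 6 were 1.36 and 1.63, and the 6 include both the lowest member by mean log2 ratio (Mrpl24) and the highest (Mrpl45).

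The 3 Mrps18 genes are paralogs (genes that arose from 1 ancestor) whose products take different places in the ribosome. Mrps18c, the closest in place to bacterial S18, went from 14.0 and 16.5 CPM to 32.1 and 36.4 CPM. Mrps18b, also of the small subunit, went from 13.3 and 14.6 CPM to 31.8 and 33.6 CPM. Mrps18a, which sits in the large subunit, went from 17.6 and 17.9 CPM to 29.8 and 29.5 CPM. All 3 rose by the edgeR fit (adjusted p = 0.00119, 0.00103 and 0.0057), which called 36.4% of genes and 97.4% of members higher. The log2 changes of Mrps18b and Mrps18c were 1.23 and 1.17 (SE 0.14 each), and that of Mrps18a was 0.74 (SE 0.13).

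Promoters of members with a large change, and of 1 with a small change, are shown because genes of this kind are known to share short promoter motifs. Each stretch is the 100 bases before the RefSeq start on the gene's strand (GRCm38.p6). Capitals mark a match to 1 of 4 motifs searched on both strands, which were NRF1 core GCATGCGC, ETS (GABPA) CCGGAAG, YY1 AAGATGGC and E-box CACGTG. The 5 genes are those with the largest change whose stretch had a usable entry, and Mrpl18, Mrps28, Mrpl12, Mrpl51 and Mrps7 are among those without one. Mrpl43, with the second lowest change, was added after its values were seen.
Mrpl45 (chr11:97315616-97315715, plus strand): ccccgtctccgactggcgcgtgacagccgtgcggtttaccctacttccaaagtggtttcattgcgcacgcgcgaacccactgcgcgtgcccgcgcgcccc
Mrpl20 (chr4:155802778-155802877, plus strand): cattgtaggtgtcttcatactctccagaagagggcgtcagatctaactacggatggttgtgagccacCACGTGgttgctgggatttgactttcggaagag
Mrpl42 (chr10:95501950-95502049, minus strand): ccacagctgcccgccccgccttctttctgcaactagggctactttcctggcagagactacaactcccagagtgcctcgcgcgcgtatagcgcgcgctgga
Mrpl28 (chr17:26123403-26123502, plus strand): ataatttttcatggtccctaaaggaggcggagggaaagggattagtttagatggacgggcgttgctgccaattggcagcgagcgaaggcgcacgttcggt
Mrps27 (chr13:99344686-99344785, plus strand): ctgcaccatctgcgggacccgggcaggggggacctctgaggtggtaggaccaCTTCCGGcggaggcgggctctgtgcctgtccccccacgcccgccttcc
Mrpl43 (chr19:45006443-45006542, minus strand): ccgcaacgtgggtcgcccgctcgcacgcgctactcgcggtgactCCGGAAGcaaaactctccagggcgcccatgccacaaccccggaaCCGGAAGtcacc

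In these stretches Mrpl43, which was not called, held 2 ETS matches, Mrps27 held 1, Mrpl20 held 1 E-box, and Mrpl45, Mrpl42 and Mrpl28 held none. A match is a description of the letters and not of a bound site.

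Over the longer windows of the RefSeq table (250 bases before to 50 after the start), 68 of the 77 members had an entry. The ETS letters were in 25 of the 68 (36.8%), against 9.93% of all 27025 genes in the table and 22.5% of the 7968 of them tested here, and within the 150 bases before the start in 14 (20.6%), against 14.8% of the genes tested. The YY1 letters were in 12 members (17.6%), against 3.19% and 5.94%, but in the 150 bases before the start in only 2 members (2.94%), against 1.68% of the genes tested. The NRF1 core was in 8 members (11.8%), against 3.05% and 6.73%. The E-box was in 5 members (7.35%), against 8.09% and 12.4%. At least 1 of the 4 motifs was in 57.4% of the members and in 40.1% of the genes tested.

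The LPS change was set beside the motifs as a description. The median of the mean log2 ratio was 1.24 for the 24 measured members with the ETS letters and 1.31 for the 43 without. It was 1.46 for the 12 with the YY1 letters and 1.23 for the 55 without, and 1.17 for the 8 with the NRF1 core and 1.35 for the 59 without. Differences between these medians were not tested.

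Levels between genes are compared only per length, in TPM, the length-scaled abundance that kallisto gives. The median TPM of the 77 members was 24.4 in resting ΔleftPAL, 46.2 in LPS ΔleftPAL, 21.7 in resting ΔIRIS and 46.8 in LPS ΔIRIS cells. Their summed TPM was 2083, 4045, 1959 and 4062 in the same order. In the LPS libraries the members thus held about the same summed TPM in both genotypes. Mrps21, the counterpart of bacterial S21, had the highest level averaged over libraries, at 91.6 and 74.8 TPM at rest and 187.0 and 190.0 TPM after LPS. Mrpl54, Mrps16 and Mrpl20 followed. Mrpl35, Mrps6, Mrpl23 and Mrpl11 were lowest, with Mrpl35 at 5.48 and 5.56 TPM at rest and 11.8 and 12.7 TPM after LPS. The gene counts of Mrpl23 were 4.31 times its kallisto estimated counts, so its low rank depends on kallisto.

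The members' levels in TPM ran from 5.48 to 91.6 in resting ΔleftPAL cells and from 10.1 to 190.0 in LPS ΔIRIS cells. Their order was largely kept, with Pearson's r of 0.86 and Spearman's rho of 0.80 between log2 TPM in these 2 libraries over the 76 measured members. The 2 libraries share gene lengths and the kallisto index. The small subunit names summed to 0.623 and 0.597 of the large subunit names at rest and to 0.590 and 0.587 after LPS (TPM, ΔleftPAL and ΔIRIS). With gene counts per kb the ratios were lower in each library, and in both cases those after LPS were below those at rest. The direction depended on the names, however. With Mrps30 and Mrps18a counted as large subunit and Mrps36 left out, an alternative added after the data had been seen, the ratios were 0.548 and 0.513 at rest and 0.528 and 0.525 after LPS, lower after LPS in ΔleftPAL and higher in ΔIRIS cells.

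**Figure D2:**
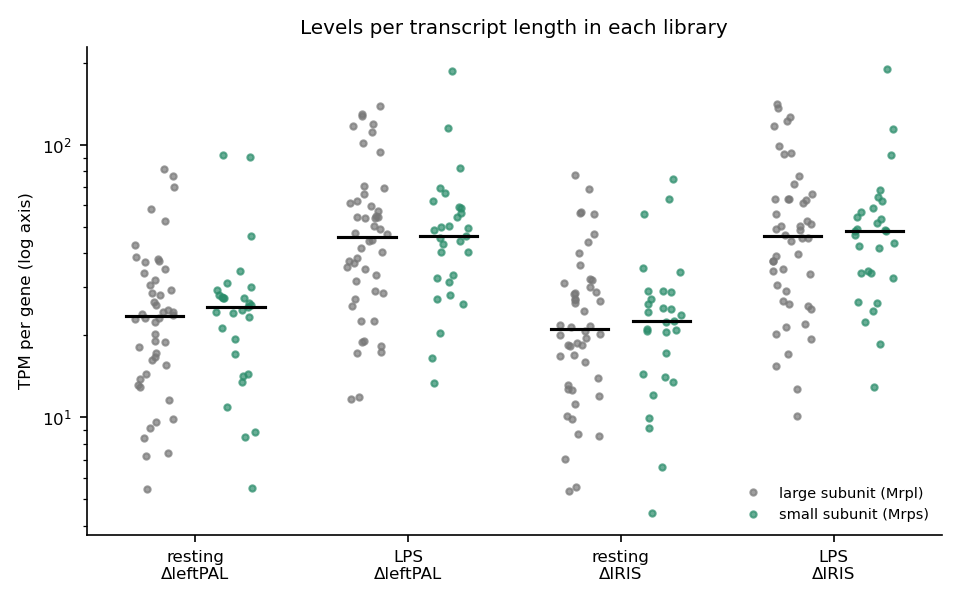
TPM of each of the 77 members (log axis) in each of the 4 libraries, split by subunit name, with horizontal bars at the medians. Medians lie between 21.1 and 25.3 TPM in resting libraries and between 46.1 and 48.2 TPM after LPS, and the 2 subunits overlap throughout.

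The 2 mitochondrial ribosomal RNAs, around which the members assemble, did not show the members' change. mt-Rnr1, the small subunit RNA, made up 1.495% of counts in resting and 1.27% in LPS ΔleftPAL cells, and 2.17% and 1.22% in ΔIRIS cells. mt-Rnr2, the large subunit RNA, made up 14.5% and 15.3% in ΔleftPAL cells and 19.6% and 15.6% in ΔIRIS cells. These RNAs are targets of the ribosomal RNA depletion, whose yield per library is not known, so their levels are not levels in the cells.

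The 6 mitochondrial ribosomal proteins found in the table under other names rose with the members. Dap3, a GTP-binding protein of the small subunit, went from 29.4 and 26.3 CPM to 64.1 and 72.1 CPM (log2 change 1.29, SE 0.14, edgeR adjusted p = 0.00097). By the mean of both genotypes Gadd45gip1, of the large subunit, was highest (log2 ratios 1.20 and 2.01), though Chchd1 rose more in ΔleftPAL cells (1.61), and Aurkaip1, of the small subunit, was lowest (0.87 and 1.00). All 6 were called higher by the edgeR fit, against 36.4% of genes, and their medians were 1.08 and 1.47.

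Other lists of mitochondrial translation had lower medians. Of 15 genes for translation factors and related proteins, such as Lrpprc, Slirp and Oxa1l, 9 rose and 0 fell by the edgeR fit. This fit called 36.4% of genes higher and 27.9% lower. The median log2 ratios of the 15 were 0.65 and 0.96. Tufm, the elongation factor Tu of mitochondria, rose from 36.0 and 30.2 CPM to 126 and 123 CPM (log2 change 1.92, SE 0.13, edgeR adjusted p = 0.000316). Slirp, a partner of the RNA-binding protein Lrpprc, rose most of them (log2 change 1.94), while the initiation factor Mtif3 was not called (log2 change -0.04, edgeR adjusted p = 0.844).

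Of 24 genes for assembly of the mitochondrial ribosome and modification of its RNA, 13 rose (54.2%) and 3 fell (36.4% and 27.9% of genes), with medians of 0.44 and 0.68. Those that fell were Mrm1, an RNA methyltransferase (log2 ratios -1.07 and -0.63), Mettl17 (-0.80 and -0.60) and Mterfd1 (-0.40 and -0.49). Wbscr16 rose most (1.245 and 1.457). Of 16 mitochondrial tRNA synthetases 8 rose (50%, against 36.4% of genes) and 0 fell (medians 0.44 and 0.65), among them Lars2 (1.04 and 0.65), and Ears2 was lowest, not called (-0.53 and -0.14). Of 8 genes of mitochondrial DNA transcription and replication 4 rose (50%, against 36.4% of genes) and 0 fell (medians 0.31 and 0.42). Tfam, which packs mitochondrial DNA, had log2 ratios of 0.25 and 0.54 (edgeR adjusted p = 0.0473), Tefm was highest (0.69 and 1.06) and Polg2 lowest, not called (-0.68 and -0.20).

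The proteins of the cytosolic ribosome had a lower median change than the members. Of 86 cytosolic ribosomal protein genes measured, 72 rose by the edgeR fit (83.7%, against 36.4% of genes) and 1 fell (against 27.9% of genes). Their medians were 0.65 and 0.75. In gene counts 13 of them (15.1%) were at least 2-fold higher in both genotypes, a share near the 18.4% of all genes, where 55 of 76 members (72.4%) were. The nuclear subunits of oxidative phosphorylation, on the other hand, had medians of 1.26 and 1.38, next to those of the members. Of 77 measured, 74 rose (96.1%, against 36.4% of genes) and 1 fell (against 27.9% of genes). The set was taken by gene names, so a gene in it need not be a subunit. Its lowest gene was Atp5sl (log2 ratios -1.45 and -1.21). At least 2-fold higher in both genotypes were 56 (72.7%, against 18.4% of genes). Differences between lists were not tested. Many reads of cytosolic ribosomal protein genes can come from or be shared with processed pseudogenes, which makes their counts less certain.

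**Figure D3:**
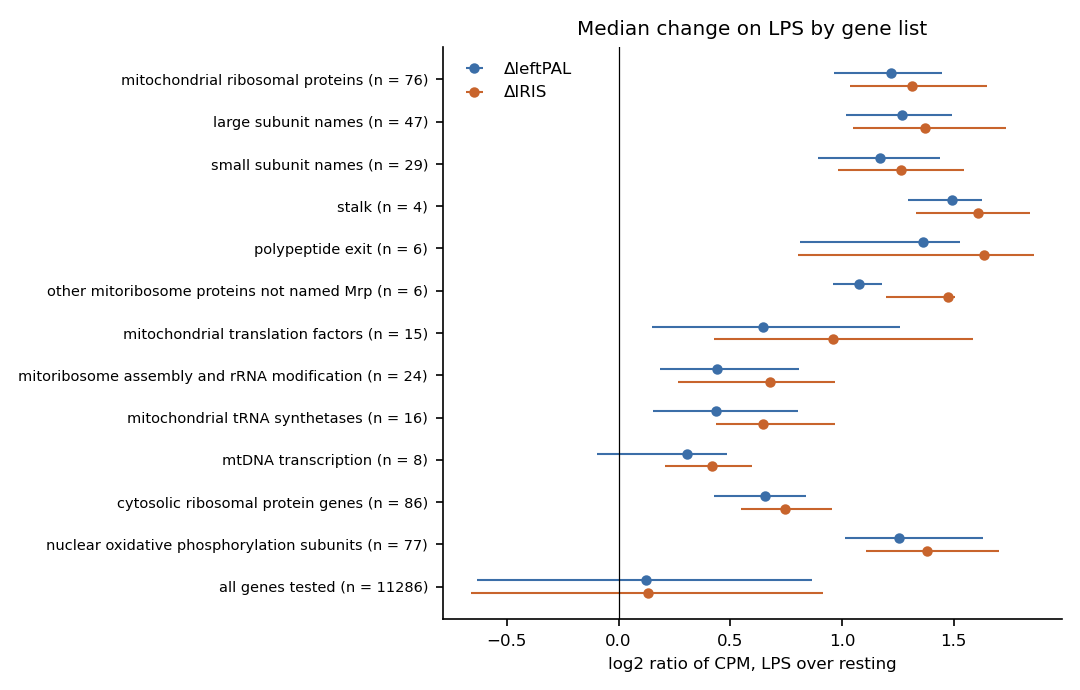
Median log2 ratio of CPM of LPS over resting for each gene list in each genotype (points), with bars from the lower to the upper quartile over the genes of the list. The members (1.22 and 1.31) and the oxidative phosphorylation subunits (1.26 and 1.38) lie beside each other, above the cytosolic ribosomal proteins (0.65 and 0.75) and all genes tested (0.12 and 0.13).

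The genotypes were then compared at each state, with values and no test since each is 1 library. At rest 27 of 76 members were higher in ΔIRIS cells, against 50.1% of genes, with a median log2 ratio of ΔIRIS over ΔleftPAL of -0.07. After LPS 55 of 76 were higher, against 55% of genes, with a median of 0.07. A log2 ratio of at least 0.32 in size was taken as a difference. At rest 18 members reached it (6 higher and 12 lower in ΔIRIS cells), where 34.4% of genes tested did. After LPS 0 did, against 21.7% of genes. The log2 ratios ran from -0.50 to 0.47 at rest and from -0.23 to 0.28 after LPS. The number of members higher in ΔIRIS cells moved with the scaling, from 21 to 32 at rest and from 40 to 67 after LPS.

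No member reached that size with a higher level in ΔIRIS cells in both states, where 3.08% of genes did, and none with a lower level in both, where 3.47% of genes did. The sign was the same in both states for 40 members (23 higher and 17 lower in ΔIRIS cells) and opposite for 36. Pearson's r between the log2 ratios of the 2 states was 0.36 over the 76 members, which share all 4 libraries, and 0.09 over all genes tested.

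Members with the same sign were ranked by the smaller of their 2 ratios, so that a large difference in 1 state alone does not lead. Highest by this rank was Mrps23, of the small subunit, which stood at 20.02 and 38.8 CPM in ΔleftPAL cells and at 23.4 and 46.1 CPM in ΔIRIS cells (resting and LPS). Its log2 ratios of ΔIRIS over ΔleftPAL were 0.22 (0.05 to 0.39) and 0.25 (0.13 to 0.37). Mrpl46 (0.32 and 0.19), Mrpl9 (0.28 and 0.19) and Mrps18c (0.24 and 0.18) followed. Mrpl52 was first in the other direction, with 12.1 and 24.5 CPM in ΔleftPAL cells and 10.1 and 20.8 CPM in ΔIRIS cells, and log2 ratios of -0.26 (-0.50 to -0.02) and -0.23 (-0.39 to -0.07). Mrps34 (-0.18 and -0.22), Mrpl44 (-0.33 and -0.14) and Mrpl43 (-0.32 and -0.13) followed. Of the exon bases of Mrps34, 37.0% are shared with Nme3 on the same strand, so its counts are less certain.

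**Figure D4:**
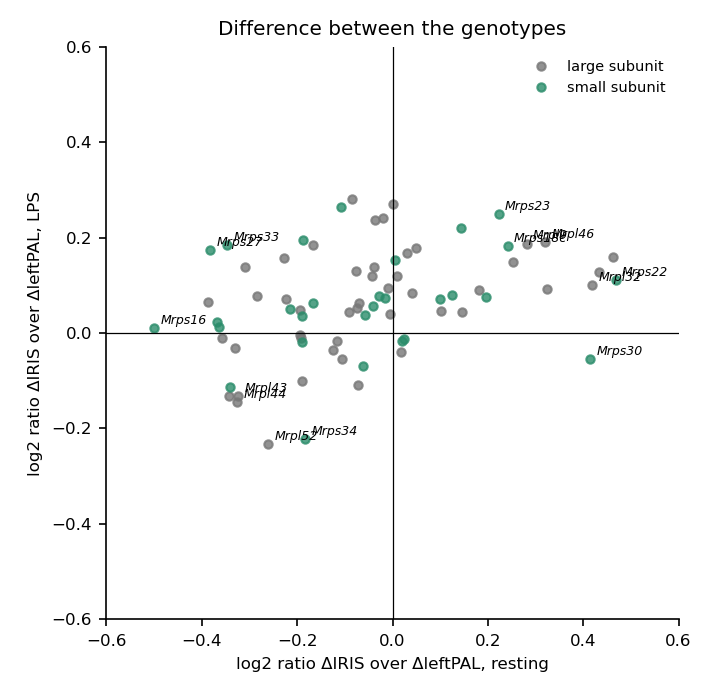
Log2 ratio of CPM of ΔIRIS over ΔleftPAL at rest (x axis) and after LPS (y axis) for the 76 measured members, 1 library pair per axis, with the members named in the text labelled. The cloud is wide at rest (-0.50 to 0.47) and narrow after LPS (-0.23 to 0.28).

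The LPS change was alike in both genotypes, with Pearson's r of 0.89 and Spearman's rho of 0.87 over 76 members (r of 0.93 over all genes tested). The log2 change was larger in ΔIRIS cells for 54 of the 76 members, with a median difference of 0.13, where it was larger for 51% of genes tested, with a median of 0.01. The largest differences were those of Mrps27, Mrps33 and Mrps16. Mrps27, an RNA-binding protein of the small subunit, went from 11.8 to 31.9 CPM in ΔleftPAL and from 9.01 to 36.0 CPM in ΔIRIS cells (log2 ratios 1.44 and 2.00). Mrps33 had log2 ratios of 1.09 and 1.62. Its gene counts were 0.56 of its kallisto estimated counts, so this difference is less certain. In TPM Mrps33 went from 30.04 to 59.2 in ΔleftPAL and from 29.2 to 62.3 in ΔIRIS cells. The genotypes thus lay closer together in TPM than in CPM in either state. Mrps16, the counterpart of bacterial S16, had 0.59 and 1.105, with 26.9 and 40.6 CPM in ΔleftPAL and 19.0 and 40.9 CPM in ΔIRIS cells. Its LPS values were alike and its resting values apart.

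In the other direction stood Mrps30 (0.74 in ΔleftPAL and 0.27 in ΔIRIS cells), Mrps22 (1.758 and 1.402) and Mrpl32 (0.95 and 0.63). The 3 were lower in resting ΔleftPAL than in resting ΔIRIS cells (9.25 against 12.8 CPM for Mrps22 and 17.0 against 22.8 CPM for Mrpl32). There is no error to set these differences against, since no group has a replicate.

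Transcript levels from kallisto covered 281 transcripts of the 77 genes. Of 76 genes with at least 5 TPM in every library, the same transcript was the main 1 throughout in 68 (89.5%, against 82.4% of 7195 genes tested with that TPM). Only in Mrpl24 and Mrpl48 did the main transcript change on LPS to the same other transcript in both genotypes (in Mrps5 it changed in opposite directions), 2.63% of these 76 members against 4.795% of those genes. In Mrpl24, which was not called as a gene, a coding transcript fell from 31.6% and 29.97% of the gene's TPM to 13.8% and 10.7%, while another rose from 23.7% and 21.4% to 32.2% and 38.2%. In Mrpl48 a transcript without a coding sequence fell from 45.6% and 42.5% to 18.2% and 9.59%, and a coding 1 rose from 25.4% and 23.8% to 40.7% and 45.0%. These shares are estimates without a replicate.

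A shift of over 20 percentage points in the same direction in both genotypes was seen in 9 members, which were Mrpl1, Mrpl2, Mrpl38, Mrpl48, Mrpl54, Mrps9, Mrps14, Mrps15 and Mrps17. This is 11.8% of the 76, against 7.95% of the 7195 genes. In Mrpl54 the coding transcript went from 76.0% and 75.4% to 97.2% and 96.9%, and the other, which keeps an intron, from 24.0% and 24.6% to 2.78% and 3.15%. In Mrps9 the coding transcript went from 71.7% and 68.5% to 92.4% and 90.7%, and in Mrps15 from 68.5% and 69.9% to 89.7% and 90.9%.

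Transcripts that keep an intron were annotated (GENCODE M21) in 31 members with at least 5 TPM in each library. Their share of the gene's TPM was lower after LPS in both genotypes for 24 of these 31 (77.4%) and higher in both for 3. The share of lower genes was the same among 3290 other genes tested (77.4%), so this is no property of the members. The highest shares were those of Mrps26, Mrps24, Mrps25 and Mrps5, at 91.2%, 71.5%, 71.4% and 68.8% of TPM in resting ΔleftPAL cells and 91.8%, 83.5%, 81.5% and 78.7% in LPS ΔIRIS cells. These 4 were named after their values were seen.

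Many members begin beside another gene on the opposite strand. Starts within 1000 bases of each other (GENCODE M21, GRCm38) were found for 33 of 77 members (42.9%), against 18.2% of 9805 protein-coding genes tested. This comparison was added after the data had been seen. Mrps11 and Mrpl46 are each other's neighbour, and Twnk, beside Mrpl43, is listed under its older name Peo1 in the gene counts. Among the 30 neighbours with enough counts 15 rose and 2 fell by the edgeR fit (36.4% and 27.9% of genes). The 15 include Mrps11 and Mrpl46, which are themselves members. The median of the mean log2 ratio was 0.66 for the neighbours, against 1.36 for the members beside them. Mrpl18 and Tcp1, a subunit of the chaperonin that folds actin and tubulin, rose alike (2.24 and 1.99). Beside Mrpl27 and Mrpl57 the neighbours Eme1, of DNA repair, and Ska3, of chromosome segregation, rose far more (3.70 and 3.26, against 1.24 and 1.37). Beside Mrpl41 and Mrpl2, in turn, Pnpla7 and Klc4 fell (log2 ratios -1.89 and -1.63, and -1.08 and -1.34).

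**Figure D5:**
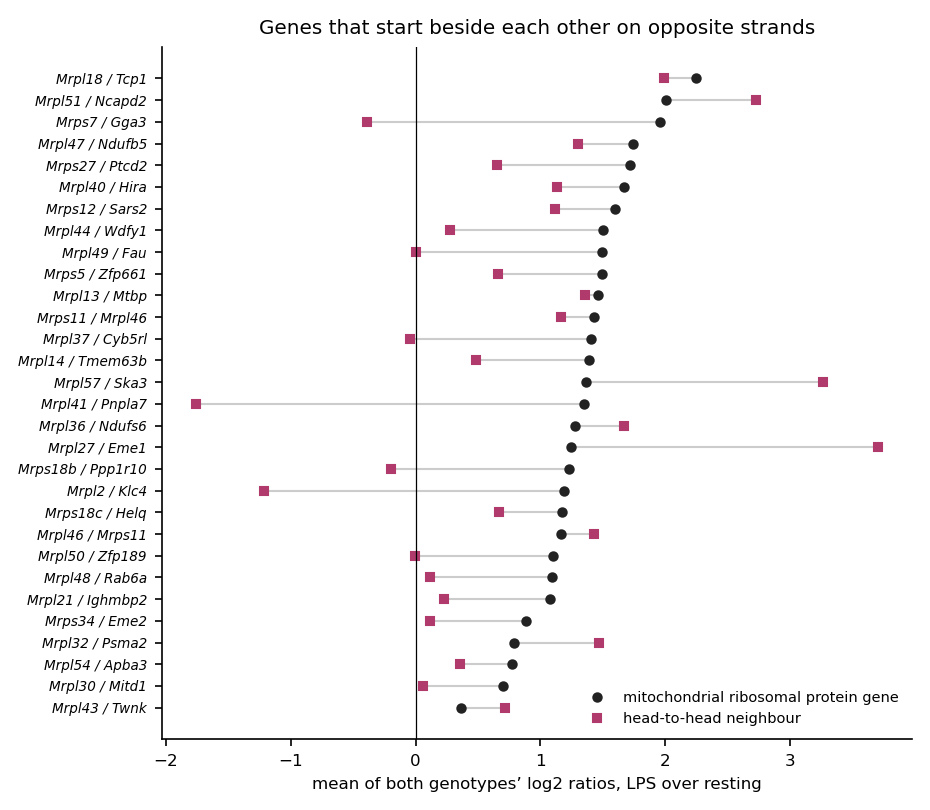
Mean over both genotypes of the log2 ratio of CPM of LPS over resting, for members (circles) and the gene that starts within 1000 bases on the opposite strand (squares), 1 pair per row. The members lie between 0.36 and 2.24, and the neighbours between -1.76 and 3.70.

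Counting was checked per member against kallisto. Gene counts divided by kallisto's estimated counts gave a median of 0.989, and 66 of the 77 members were within 10% of 1. Mrpl23 was highest (4.31), and Mrps2 (0.53), Mrps33 (0.56), Mrps25 (0.57), Mrps18b (0.66) and Mrps6 (0.75) were low. Mrpl53, at 0 gene counts, shares 87.1% of its exon bases with Ccdc142 on the same strand.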

How the data were processed

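The authors mapped paired 150 nt reads of stranded libraries with STAR 2.4.0a to mm10 with Ensembl release 77, and deposited raw fragment counts per gene name from featureCounts (Subread 1.4.6-p1). They also deposited kallisto 0.42.3 estimated counts, without normalization, and TPM per transcript. Index and settings of kallisto are not given in the sources used here. A row without a gene name (0.00876 to 0.0264% of counts) was left out. The members and lists were chosen with earlier results of these data known. A gene was kept if its mean count was 50 or more. Library sizes came from TMM (edgeR 4.0.16, R 4.3.3). A library at 0 counts was set to 3 counts. Intervals of log2 ratios are 95% exact conditional binomial (Clopper-Pearson). The shared LPS change was tested by edgeR's quasi-likelihood fit with genotype and LPS terms (adjusted p under 0.05). The fit was also run on simulated counts with the same dispersion for every gene and no genotype difference. That run does not show the error of the fit in these data. SE is the log2 change divided by the root of its F. Named are the 8 highest and 8 lowest changes, 4 highest and 4 lowest levels, 4 genotype differences (by the smaller ratio) and 3 differences in LPS change each way, stalk, exit and Mrps18 genes, and the extremes of each list with Tufm, Dap3, Tfam and Lars2. Among these, 1 gene of another list is not reported here. Library sizes, tables, minimum, prior and DESeq2 1.42.0 were varied. Promoters came from RefSeq (GRCm38.p6), and those printed overlap at most 30 bases of an annotated exon. Figures were drawn with matplotlib 3.10.9.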

Additional observations from a re-analysis of the deposited data

Results flagged for a closer look

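In 4 members the difference between the genotypes pointed in opposite directions at rest and after LPS, with both counting intervals clear of 0. No share of all genes tested is given for this rule, so the count cannot be read as a property of the members. The change of the log2 ratio of ΔIRIS over ΔleftPAL from resting to LPS was 0.56 for Mrps27, 0.53 for Mrps33, 0.45 for Mrpl18 and 0.38 for Mrpl17. Each was lower in ΔIRIS cells at rest and higher after LPS, in 1 library per group, and the difference was not tested. For Mrps33 the gene counts were 0.56 of the kallisto estimated counts, and in TPM its genotypes lay closer together in either state.

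Mrpl53, without a gene count in any library, had signal in the kallisto table, which the comparisons of gene counts above do not use. Its estimated counts were 127.3 at rest and 416.4 after LPS in ΔleftPAL cells, and 202.1 and 443.9 in ΔIRIS cells in the same order.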

How the results depend on the processing

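Counts of members at least 2-fold higher, medians, and the edgeR calls were recomputed with total counts, DESeq2 size factors, TMM without immunoglobulin genes, kallisto tables, other minimum means (10, 200, none) and a prior of 0.5 CPM. The number of members higher after LPS by the additive fit stayed between 72 and 75, and 0 were lower under each fit tried, DESeq2 and a fit without the genotype term included. Mrpl24 was not called under any of them, and Mrps30 lost its call under total counts, DESeq2 size factors, TMM without immunoglobulin genes, DESeq2 and the fit without genotype. In kallisto TPM the number at least 2-fold higher in ΔleftPAL cells was 35, that in both genotypes 33, and the medians were 0.98 and 1.04. TPM moved the median of all genes tested to -0.22 and -0.21, from 0.12 and 0.13, and 1 transcript of Gm20594 took up to 324701 TPM. In TPM the log2 LPS ratios of Mrpl24 and Mrpl23 in ΔIRIS cells turned to -0.14 and -0.14, that of Mrpl24 in ΔleftPAL cells to -0.11, Mrps2 went from 27.4 to 27.2 TPM in ΔleftPAL cells, and the LPS ratio of ΔIRIS over ΔleftPAL of Mrpl45 to -0.015; the cause was not tested. With gene counts per kb the small over large subunit ratios were 0.486 and 0.443 in resting and LPS ΔleftPAL cells and 0.475 and 0.449 in ΔIRIS cells. With subunits by place, added after seeing the data, they were 0.548 and 0.528, and 0.513 and 0.525. Motifs sought only in the 150 bases before the start were found in 20.6% (ETS), 2.94% (YY1), 10.3% (NRF1 core) and 4.41% (E-box) of members, and in 14.8%, 1.68%, 4.72% and 7.69% of the genes tested. The 144 single ratios recomputed for each scaling of the gene counts stayed within their counting intervals. With kallisto estimated counts 114 of the 144 did and 30 moved. In kallisto TPM 75 did, 66 moved and 3 were classed as reversed. The labels carry no replicate numbers, and pairing the libraries of a genotype by its term in the fit called 74 members higher against 73 without that term. Depth gave each resting library at least 50 counts of each measured member.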
